A study of Mus musculus with 3 samples.

Results

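The pyruvate dehydrogenase complex and its kinases were followed through 1 ChIP-seq peak list for ESRRA, the estrogen-related receptor alpha, as 9 genes: Pdha1, Pdhb, Dlat, Dld, Pdhx, Pdk1, Pdk2, Pdk3 and Pdk4. A peak was assigned to a member when its midpoint lay within 30 kb of any of the gene's annotated start sites, and members with no such peak were kept as negatives. By this rule 2 of the 9 genes, Pdhb and Dld, had a peak, with 1 peak each among the 1639 peaks of the list. Villus cells were taken from the duodenum of wild-type adult mice (C57BL/6, regular chow), and their chromatin was cross-linked with formaldehyde and DSG, a cross-linker that joins proteins to each other, and then sheared to 300 to 600 bp. There were 2 ESRRA ChIP libraries and 1 library of input chromatin (DNA taken before the antibody step), with no mutant, no treatment and no second tissue. Both ChIP libraries entered 1 merged peak list, which the authors called with MACS2 at a p-value of 1e-05. The list holds positions only, so peak heights, the read depth and the spread between replicates are unknown here, every peak counts the same, and nothing in it measures expression. All coordinates are of mouse build mm9, counted from 1, with genes from GENCODE M1. All 1639 peaks were 601 bp wide.

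The pyruvate dehydrogenase complex sits in the mitochondrial matrix and turns pyruvate into acetyl-CoA, the step that joins glycolysis to the citric acid cycle. Its E1 enzyme (Pdha1 and Pdhb) decarboxylates pyruvate, its E2 core (Dlat) passes the acetyl group to coenzyme A through a lipoyl arm, and its E3 enzyme (Dld), held in place by the E3-binding protein (Pdhx), reoxidises that arm. The pyruvate dehydrogenase kinases phosphorylate E1 and switch the complex off, and Pdk4, the kinase that fasting induces in many tissues, is a known target of ESRRA outside the intestine. ESRRA is an orphan nuclear receptor that binds the 9-base sequence TCAAGGTCA, called the ESRR sequence here, of which AAGGTCA is the 7-base core and AGGTCA the 6-base core shared by many nuclear receptors.

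Parts of the sequences under the 2 member peaks are shown first, for use with the results on binding sequences below. Neither peak is printed in full. The second Dld match to TCAAGGTCA and the nearer Dld CCAAT described below lie outside the printed stretches. Each is written 5′ to 3′ along the gene, and both genes lie on the minus strand. The stretch of Pdhb that runs from its start codon into the gene is chr14:9005147-9005446, with capitals on the closest match to TCAAGGTCA in the peak, which reads on the other strand.
Pdhb, start codon into the gene: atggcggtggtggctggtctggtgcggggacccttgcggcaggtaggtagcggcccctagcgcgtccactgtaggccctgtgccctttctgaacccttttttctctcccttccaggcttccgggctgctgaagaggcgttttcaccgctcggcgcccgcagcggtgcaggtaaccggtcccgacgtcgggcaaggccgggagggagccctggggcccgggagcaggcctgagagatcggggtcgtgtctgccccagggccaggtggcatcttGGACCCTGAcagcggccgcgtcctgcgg
The part of the Pdhb peak upstream of the start site is chr14:9005507-9005715, with capitals on 1 GGGCGG sequence and on the 3 ATTGG sequences, which are CCAAT on the other strand.
Pdhb, upstream: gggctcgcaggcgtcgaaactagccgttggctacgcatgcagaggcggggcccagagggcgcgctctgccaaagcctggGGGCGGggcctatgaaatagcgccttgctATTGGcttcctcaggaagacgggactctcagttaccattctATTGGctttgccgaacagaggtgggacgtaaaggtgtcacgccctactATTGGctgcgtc
For Dld the stretch from the start codon is chr12:32035905-32036204, with capitals on the match nearest to the peak's midpoint.
Dld, start codon into the gene: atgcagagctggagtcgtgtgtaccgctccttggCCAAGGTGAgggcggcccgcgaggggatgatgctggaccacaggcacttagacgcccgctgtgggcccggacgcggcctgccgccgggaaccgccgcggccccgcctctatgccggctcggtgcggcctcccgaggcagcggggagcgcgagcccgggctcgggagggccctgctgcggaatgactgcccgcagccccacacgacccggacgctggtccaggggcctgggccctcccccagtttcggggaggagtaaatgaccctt
The part of the Dld peak upstream of the RefSeq start is chr12:32036337-32036438, with capitals on 1 CCAAT sequence.
Dld, upstream: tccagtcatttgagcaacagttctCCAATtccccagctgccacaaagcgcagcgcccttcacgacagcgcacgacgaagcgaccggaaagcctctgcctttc

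Among the 5 subunits of the complex, 2 had a peak within 30 kb, and among the 4 kinases 0 did. Of all 22367 protein-coding genes 8.75% had a peak within 30 kb, against 22.2% of the members, which is 2 genes. Both member peaks also lay within 1 kb of a start site, a range in which 2.08% of all genes had a peak. The count was 2 at 10 kb as well (4.64% of all genes), and it was 3 at 50 kb (12.3%) and at 100 kb (19.8%), where Dlat was added. The median distance from a member to its nearest peak was 572 kb, and the median over all protein-coding genes was 448 kb, with quartiles of 139 and 1200 kb. The members thus fell into 2 genes with a peak on the start site and 7 with none within 30 kb. No test was applied to these counts, since the members were chosen with earlier results of these data known. The list also offers no replicates.

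**Figure D1:**
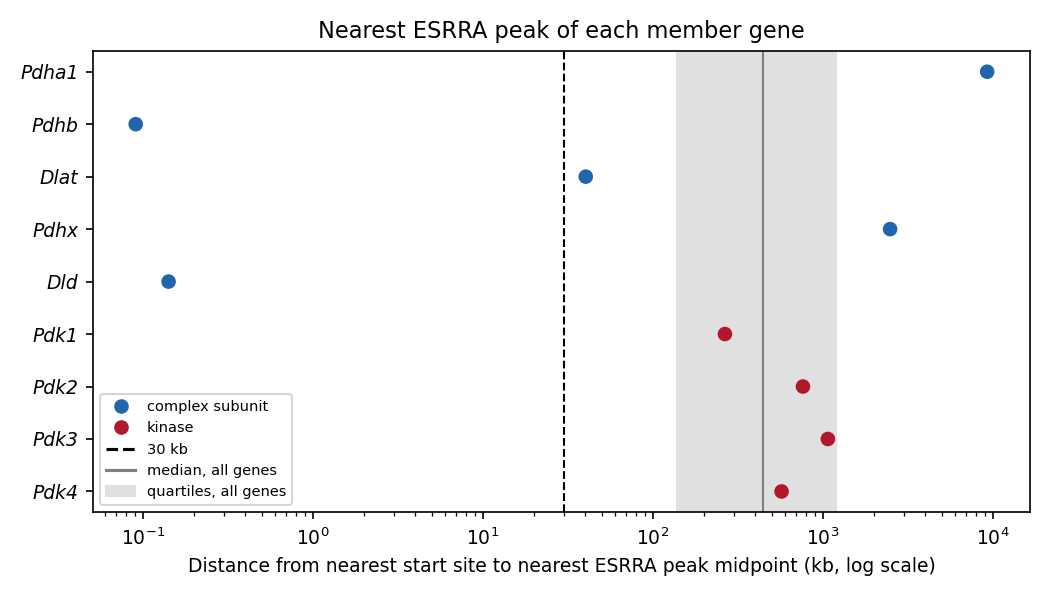
Each point is 1 of the 9 members, placed by the distance in kb (log axis) from its nearest start site to the midpoint of the nearest ESRRA peak. Pdhb and Dld lie at 91 and 142 bp, Dlat at 40.4 kb, and the other members at 266 kb or more.

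Pdhb encodes the beta subunit of E1, the enzyme that the kinases act on through its alpha subunit. The gene lies at chr14:8998505-9005506 on the minus strand and has 1 annotated start site. Its peak at chr14:9005115-9005715 had its midpoint 91 bp downstream of that start site, in the first coding exon, and 0.322% of all protein-coding genes had a peak nearer to a start site. Of the 601 bases of the peak, 209 lay upstream of the gene, 156 in exons (60 of them untranslated and 96 coding) and 236 in introns. Pdhb was the only protein-coding gene with a start site within 30 kb of the peak. The nearest other peak was 77.5 kb away.

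Dld encodes E3, the dihydrolipoamide dehydrogenase, which the sister 2-oxoacid dehydrogenases and the glycine cleavage system also use. The gene lies at chr12:32016429-32036302 on the minus strand and has 2 annotated start sites. Its peak at chr12:32035838-32036438 had its midpoint in the first intron, 142 bp downstream of the nearer start site and 164 bp downstream of the outermost one, and 0.465% of all protein-coding genes had a nearer peak. From the RefSeq start of Dld, placed on mm9 by an exact match of its promoter sequence, the midpoint was 198 bp away. Of the peak's bases, 136 lay upstream of the gene, 137 in exons (98 untranslated and 39 coding) and 328 in introns. Besides Dld, the protein-coding genes with a start site within 30 kb were Gm11053 at 26.5 kb and Lamb1, which encodes a laminin chain of basement membranes, at 27.8 kb, the latter only through the start of a retained-intron transcript. The nearest other peak was 112 kb away.

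**Figure D2:**
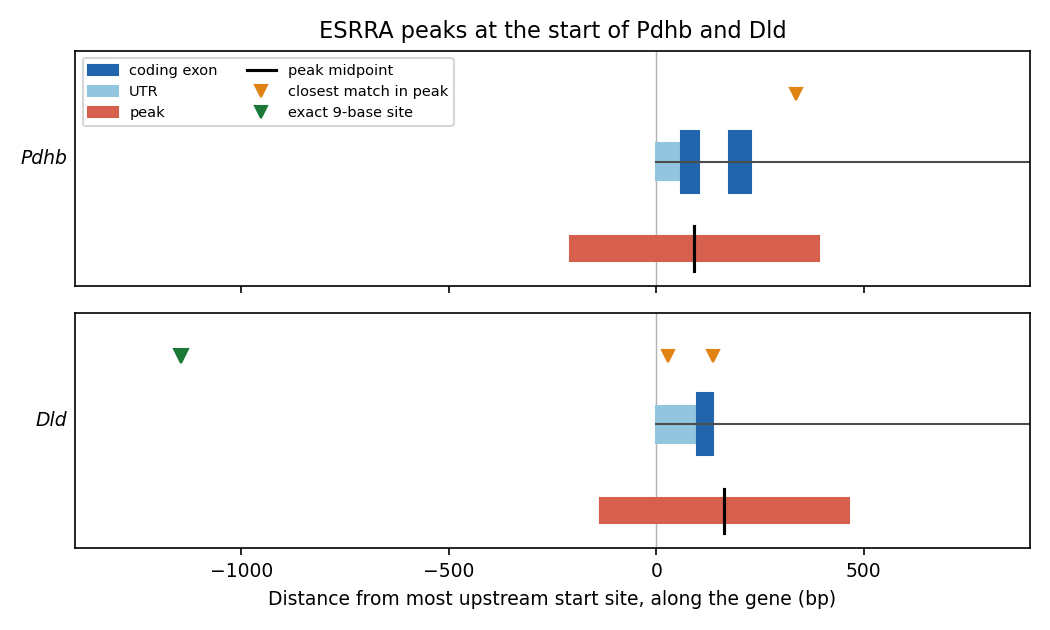
The 5′ ends of Pdhb and Dld are drawn along the gene, in bp from the most upstream start site, with exons as boxes (coding parts tall) the ESRRA peak as a bar and the sequences closest to, or matching, the ESRR sequence as triangles. Each peak spans the start site, with its midpoint 91 bp (Pdhb) and 164 bp (Dld) into the gene.

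Both member peaks were of single-copy sequence: the median 24-base word in each occurred 1 time in the genome. Of the 1639 peaks, 324 had a median above 10 copies and are called multi-copy here. All other peaks are called single-copy, also where their median lay above 1. Both were rich in GC. The Pdhb peak had 64.9% GC and 49 CpG dinucleotides, and the Dld peak had 67.4% GC and 57 CpG. Among the 469 single-copy peaks within 1 kb of a start site, the medians were 56.6% GC and 28 CpG, and the member peaks stood at the 86.1 and 91.7 percentiles of GC. Of the 426 such peaks at a protein-coding start site, 63.6% lay downstream of it, as both member peaks did, and 25.8% had a midpoint within 150 bp. Having 1 gene within 30 kb, as Pdhb had, was seen in 33.8% of those peaks, and having no other peak within 30 kb, as both had, in 68.1%.

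Neither member peak held TCAAGGTCA, AAGGTCA or AGGTCA on either strand. Over all 1639 peaks these shares were 14.3% for TCAAGGTCA, 44.0% for AAGGTCA and 61.4% for AGGTCA. Among the single-copy promoter peaks, the closest counterpart of the member peaks, 70.4% held AGGTCA, so 139 of the 469 (29.6%) lacked it as both member peaks did. In those of them with at least 60% GC, 51 of 156 (32.7%) lacked it. In 3074 windows of the same width placed 2 kb to either side of all peaks, 34.2% held AGGTCA and 12.6% held AAGGTCA. The 4 such windows around the member peaks held no AAGGTCA. The window upstream of the Dld peak did hold AGGTCA, at chr12:32037881-32037886 and chr12:32038150-32038155. The looser form TNAAGGTCA was not found in either peak. Neither was ACTGGAACT, the ESRR sequence read backwards without complementing, which served as a control, nor CAAAGTCCA, a sequence bound by HNF4 receptors. Over all peaks the shares were 20.4% for TNAAGGTCA, 0.427% for ACTGGAACT and 2.56% for CAAAGTCCA. Among the single-copy promoter peaks they were 24.3%, 0.64% and 1.07%. Most peaks thus lacked these sequences too.

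The closest match to TCAAGGTCA had 2 mismatches in each peak. Substitutions are given as the base of TCAAGGTCA, its position counted from 1 at the 5′ end, and the base in the genome. In Dld the match CCAAGGTGA (T1C and C8G) at chr12:32036162-32036170 on the minus strand centred 28 bp from the peak's midpoint and straddled the end of the first exon, with 5 bases in the exon and 4 in the intron. A second match in Dld, CCAAGGTCT (T1C and A9T) at chr12:32036270-32036278 on the plus strand, lay in the 5′ UTR, 136 bp from the midpoint. In Pdhb the match TCAGGGTCC (A4G and A9C) at chr14:9005166-9005174 on the plus strand lay in an intron, 245 bp from the midpoint. A closest match with 2 mismatches was the case in 37.7% of the single-copy promoter peaks and in 65.3% of their 905 flanking windows. A perfect match was found in 17.5% of these peaks and 1.44% of the windows, and 1 mismatch in 38.6% and 21.5%. A match with up to 2 mismatches was found in 93.8% of these peaks and 88.3% of the windows, so the 3 matches are a description of the sequence only.

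**Figure D3:**
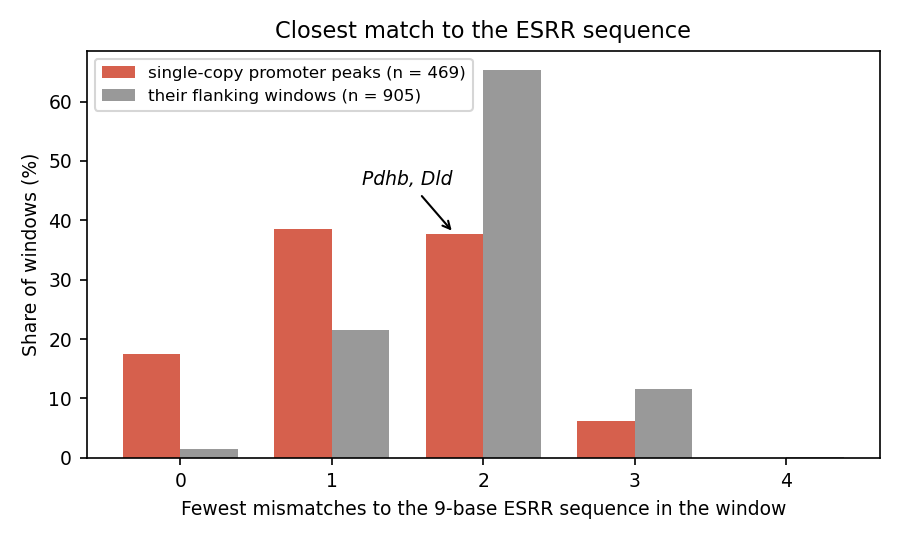
Bars give the share (%) of 469 single-copy promoter peaks and of their 905 flanking windows whose closest match to the 9-base ESRR sequence has the number of mismatches on the x axis. Pdhb and Dld fall in the class with 2 mismatches, which holds 37.7% of the peaks and 65.3% of the flanking windows.

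Other sequences common in promoters were found under both peaks. The Pdhb peak held GGGCGG, the core of the GC box bound by Sp factors, 127.5 bp upstream of the start site, and CCGGAAG, the core of sites bound by ETS factors, 179 bp downstream of it. The Dld peak held GGGCGG 143.5 bp downstream of the most upstream start site and no CCGGAAG. Of the single-copy promoter peaks with at least 60% GC, 85.3% held GGGCGG and 28.2% held CCGGAAG on either strand. CCAAT, searched after the stretches above had been read, was found 3 times at Pdhb, 10, 58 and 99 bp upstream of the start site, and 2 times at Dld, 29 and 110 bp upstream of the outermost GENCODE start site. The nearer of the 2 at Dld lies downstream of the RefSeq start. At least 1 CCAAT was found in 47.8% of the single-copy promoter peaks and 54.4% of their flanking windows, and 3 or more in 5.76% and 6.3%. In the single-copy promoter peaks with at least 60% GC these shares were 36.5% and 3.85%.

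Dlat, the E2 core acetyltransferase, came nearest among the members without a peak. The gene lies at chr9:50442738-50467885 on the minus strand with 6 annotated start sites, and the nearest peak, at chr9:50411512-50412112, was 40.4 kb from an internal start of a retained-intron transcript and 56.1 kb from the most upstream start site. Of all protein-coding genes 10.6% had a nearer peak. The peak's midpoint lay 142 bp from the start site of Sdhd, a membrane subunit of succinate dehydrogenase, within an intron of that gene. It had 5 protein-coding genes with a start site within 30 kb: Sdhd, Timm8b, Pih1d2, Il18 and AU019823. In contrast to the member peaks it held a full ESRR sequence, at chr9:50411910-50411918 on the plus strand, 102 bp from its midpoint. It is shown here within 30 bases of the plus strand (chr9:50411900-50411929), with the ESRR sequence in capitals.
Peak nearest to Dlat, at Sdhd: tttcgagggcTCAAGGTCActctacaaccc

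Pdha1, which encodes the alpha subunit of E1 that carries the regulatory phosphorylation sites, and Pdhx had no peak for megabases. Pdha1 lies at chrX:156560141-156576345 on the minus strand, and its nearest peak was 9.27 Mb away. A nearer peak was found for 99.8% of all protein-coding genes. Pdhx lies at chr2:102861232-102913670 on the minus strand, with its nearest peak 2.49 Mb upstream and 89.3% of genes nearer to one. Both of these peaks were multi-copy, with medians of 4150.5 and 1153 copies per 24-base word. The nearest peak not called multi-copy was 33.3 Mb from Pdha1, with a median of 5 copies, and 9.63 Mb from Pdhx. Peaks on the X chromosome were sparse in this list: it held 36 peaks, most of them multi-copy. Of its 932 protein-coding genes 12 (1.29%) had a peak within 30 kb, with a median distance of 1.24 Mb. Pdha1 and Pdk3 are the 2 members on this chromosome.

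None of the 4 kinases had a peak within 100 kb of a start site. Pdk4, at chr6:5433351-5446309 on the minus strand, had its nearest peak at chr6:4873652-4874252, 572 kb downstream and 20.5 kb from a start site of Ppp1r9a, and 56.4% of all protein-coding genes had a nearer one. That peak had a median of 10 copies per 24-base word, at the limit above which a peak was called multi-copy. Pdk1, at chr2:71711281-71741915 on the plus strand, had its nearest peak 266 kb upstream, at chr2:71445132-71445732, with Dlx2 as that peak's nearest gene (37.3% of genes nearer). Pdk2, at chr11:94887572-94902668 on the minus strand, had its nearest peak 764 kb upstream, near Phospho1 (64.2% nearer). Pdk3, at chrX:91009946-91077540 on the minus strand, had its nearest peak 1.07 Mb upstream (72.5% nearer). That peak was multi-copy with a median of 25 copies, and the nearest single-copy peak was 3.02 Mb away. The kinases were thus spread around the middle of all genes by distance, from the 37.3 to the 72.5 percentile. Within 500 kb, 1 peak was found for Pdk1 and 0 for the other kinases, against a median of 1 peak over all protein-coding genes. The absence of a peak says that none passed the authors' threshold on the merged reads, and weaker binding could not be detected from this list.

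The start sites were also searched for the ESRR sequence whether or not they had a peak, over 2 kb to each side of the most upstream start site. AAGGTCA was found within 2 kb in 6 of the 9 members, against 52.2% of 22338 protein-coding genes, and within 1 kb in 3 of 9, against 29.4%. The full TCAAGGTCA was found within 2 kb in 2 members, Dld and Pdk4, against 9.95% of genes. Neither lay under a peak. The Dld sequence at chr12:32037444-32037452 is 1146 bp upstream of the start site and 1005 bp beyond the edge of the peak. The Pdk4 sequence at chr6:5444525-5444533 is in an intron of Pdk4, 1780 bp downstream of the start site. Of the others, the AAGGTCA of Pdha1 was 425 bp upstream, that of Pdhx 468 bp downstream in an intron of the gene, that of Pdk3 661 bp upstream and that of Pdk1 1136 bp upstream. Within 2 kb, Dlat and Pdk2 held AGGTCA but not AAGGTCA, and Pdhb held no AGGTCA, as did 9.98% of all genes. The 6 members with the 7-base core are shown as 30 bases each, with the 7-base core, or the 9-base sequence where it is complete, in capitals, and with their coordinates and strand.
Dld, chr12:32037433-32037462, minus: gactataaatTCAAGGTCAttctaagctct
Pdk4, chr6:5444516-5444545, plus: gaaaggatgTCAAGGTCAtcctaggagttc
Pdha1, chrX:156576756-156576785, plus: tttgtctttaaAAGGTCAcatattccttgc
Pdhx, chr2:102913188-102913217, plus: aattctaaagcAAGGTCAcagagaagccat
Pdk1, chr2:71710131-71710160, minus: ggtgagaattctAAGGTCAtccgaaatcat
Pdk3, chrX:91078187-91078216, plus: cattacaaacgAAGGTCAttaacacttggt
Of these 6, Dld is the 1 member that also had a peak, and its AAGGTCA lay outside that peak.

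**Figure D4:**
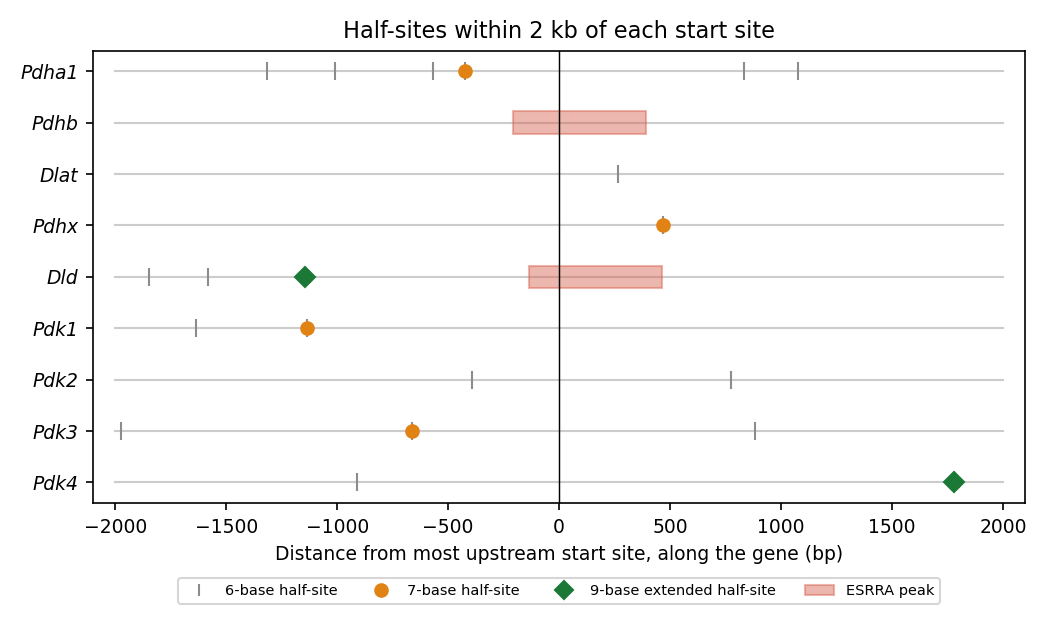
Marks show, for each of the 9 members, the ESRR sequence and its 7-base and 6-base cores within 2000 bp of the most upstream start site, by distance along the gene in bp, with the member peaks as bars. Pdhb holds none of the 3 sequences, and those of Dld lie outside its peak.

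Around the complex, 6 further lists of genes in pyruvate and acetyl-CoA metabolism and 1 list of ESRRA with its relatives and coactivators were read in the same way. Together 10 of their 42 genes had a peak within 30 kb (23.8%, against 8.75% of all genes) and 8 within 1 kb (against 2.08% of all genes). The lists were chosen with earlier results of these data known, and they include Abhd11, which the paper shows as a direct target. The shares therefore describe the chosen genes only, and no test was applied. The phosphatases that reverse the kinases had 0 of 3 (Pdp1, Pdp2 and Pdpr, at 142, 141 and 194 kb). The list around pyruvate supply and use, which also took in the phosphoenolpyruvate carboxykinase Pck1, had 6 of 12. Pyruvate kinase Pkm2 (now Pkm) had a peak 9 bp from a start site, the monocarboxylate transporter Slc16a1 at 327 bp and Pck1 at 381 bp. The alanine aminotransferase Gpt had its nearest at 577 bp, lactate dehydrogenase Ldha at 1793 bp and the malic enzyme Me2 at 15.2 kb. The mitochondrial pyruvate carrier genes, Brp44l (now Mpc1) and Brp44 (now Mpc2), had none, at 1460 and 660 kb, and pyruvate carboxylase Pcx had none at 464 kb. The sister 2-oxoacid dehydrogenases and their regulators had 1 of 9. This was Ogdh, the E1 of the 2-oxoglutarate dehydrogenase complex, with a peak 137 bp downstream of a start site. Genes of lipoylation and glycine cleavage had 1 of 6, Abhd11 at 58 bp. The fate of acetyl-CoA had 1 of 6, citrate synthase Cs, with peaks 435 bp upstream and 603 bp downstream of a start site. The testis form of the E1 alpha subunit, Pdha2, had 0 of 1. ESRRA with its relatives and coactivators had 1 of 5, Esrra itself. Its peaks lay 421 bp upstream and 1223 bp downstream of a start site, with a further 2 within 30 kb.

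Of the 17 peaks within 30 kb of an other-list gene, 11 held AGGTCA, 9 held AAGGTCA and 3 held TCAAGGTCA. Of the 9 within 1 kb, 7 held AGGTCA, 6 held AAGGTCA and 1 held TCAAGGTCA. The shares over all peaks were 61.4% for AGGTCA, 44.0% for AAGGTCA and 14.3% for TCAAGGTCA. Among the single-copy promoter peaks they were 70.4%, 52.0% and 17.5%.

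**Figure D5:**
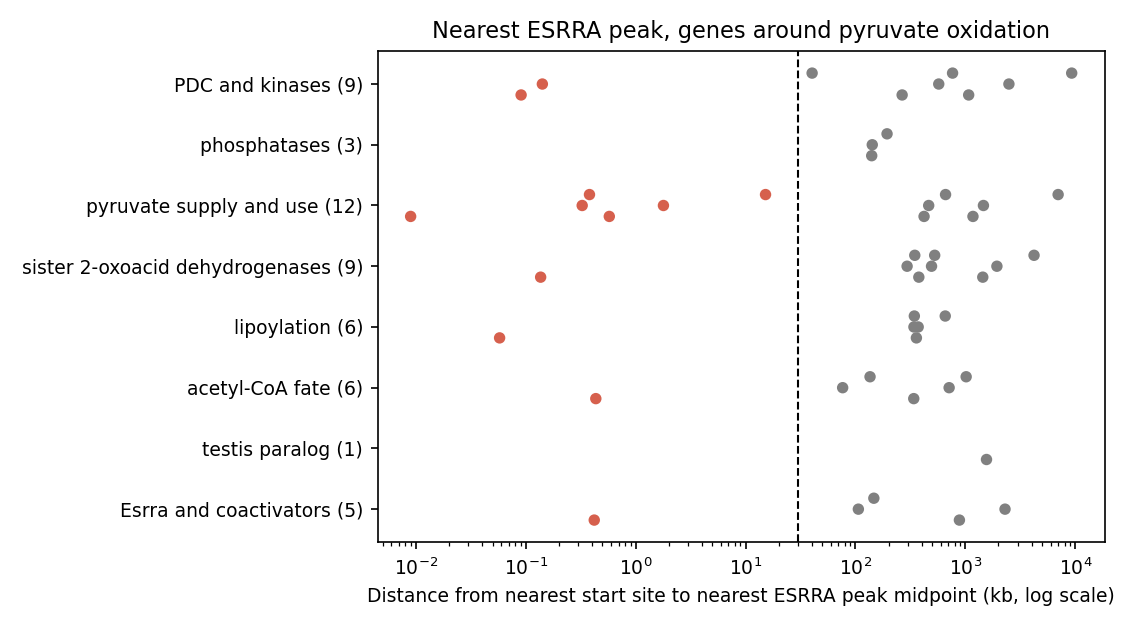
Each point is 1 gene of the complex or of the surrounding lists, placed by the distance in kb (log axis) from its nearest start site to the nearest ESRRA peak midpoint. Pdhb and Dld stand at 91 and 142 bp beside Pkm2 at 9 bp and Ogdh at 137 bp, while the phosphatases and kinases all lie beyond 100 kb.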

How the data were processed

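ESRRA ChIP-seq was carried out by the authors in 2 libraries of duodenal villus chromatin with 1 input library, grouped here by their titles. The submitters' processing notes name FastQC 0.11.3, Bowtie2 2.2.6, SAMtools 0.1.19 and deepTools 2.4.2, with mm9 as the genome. Both ChIP libraries were merged and peaks were called with MACS2 at a p-value of 1e-05. The version of MACS2 and the origin of the single peak width are not given in the sources used here. The deposited list holds a chromosome, a start and an end per peak, in base pairs, and no score. The read depth is therefore unknown, and no error per peak or between replicates could be given.

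Peak midpoints were compared with every GENCODE M1 start site of 22367 protein-coding genes, and distances are signed along the gene. Sequences were matched on both strands of NCBI build 37 (mm9), with windows of the peak width shifted by 2 kb as background. Copy number was the median count of the 24-base words of a peak in the genome, with more than 10 called multi-copy and the rest single-copy. RefSeq promoter sequences of the members, 11 in all, were placed by exact match. Genes named are the 9 members with their nearest peaks, other protein-coding genes within 30 kb of a member peak, and list genes with a peak within 30 kb; further list genes, and the genes beside the peaks nearest to members without one, were named after their values were seen. Members and lists were chosen with earlier results of these data known. Scripts used python 3.11.15, pandas 2.3.3, pysam 0.24.0 and numba 0.67.0, and were tested on simulated data.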

Additional observations from a re-analysis of the deposited data

How the results depend on the processing

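The count of 2 members with a peak within 30 kb was 2 at 1 and 10 kb, from the peak edge, with start sites of protein-coding transcripts or the most upstream start site alone, without multi-copy peaks, with each peak given to its nearest gene, and with RefSeq start sites added, and it was 3 at 50 and 100 kb. The count of member peaks, also 2, was 3 at 50 kb and 4 at 100 kb. The count of member peaks with AAGGTCA, 0, was 0 for the other exact sequences, the centre of the peak alone, the flanking windows and up to 1 mismatch to TCAAGGTCA, and it was 2 with up to 2 mismatches, where more sequences pass by construction. The 10 list genes became 8 at 1 kb and 11 at 100 kb. RefSeq start sites, mismatches and the list settings were chosen after seeing the data. No paired analysis was possible because peaks were called on the merged ChIP reads, which gives 1 list for both. For the same reason leaving out a ChIP replicate could not be run, and a stricter p-value could not be run because the list carries no scores. Weaker binding and the spread between mice could not be measured here.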

Other observations

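Apart from the peak on its start site, Pdhb had a second peak within 100 kb, at chr14:9082662-9083262 and 77.5 kb upstream, in an intron of Acox2, a peroxisomal acyl-CoA oxidase. Within 500 kb, Pdhb and Dld had 3 peaks each, Dlat and Pdk1 had 1 each and the other 5 members had 0, against a median of 1 over all protein-coding genes, with quartiles of 0 and 2.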
